A study of Solanum lycopersicum with 9 samples.

Results

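Guard cells flank each stomatal pore of the leaf surface and set its width. They were compared between tomato leaves with a loss of DELLA function (pro) and leaves of the cultivar M82. The comparison used 6 of the 9 libraries of the series, chosen by the genotype label, 3 of pro and 3 of M82. The other 3 libraries, from pro∆17, a line with a DELLA gain of function called proD17 here, are not part of the main test; they enter only the alternative fits said to use all 9 libraries and are otherwise given as values beside loci of interest. The titles of proD17 libraries 2 and 3 end in other numbers than that of library 1, while genotype and description give all 3 as 1 line, which was followed here. The labels list M82 as the strain of every library, and plants of both groups came from a growth room with no treatment named. They give neither an age nor the pro allele. Nothing in the labels ties each library to a plant of its own, and a p-value therefore reflects only variation among these libraries, which may be technical. RNA was taken from epidermal fragments left after leaves were ground in a blender, so cells other than guard cells can contribute.

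DELLA proteins sit in the nucleus and hold back growth that gibberellin would release, and tomato has a single DELLA gene, PROCERA. Gibberellin binds its receptor GID1, the complex marks DELLA for destruction through an F-box protein, and the repressed growth programme starts. The pathway also feeds back on itself: in Arabidopsis, DELLA proteins promote transcription of enzymes that make gibberellin and of its receptors. Guard cells close the pore in response to another hormone, abscisic acid, which rises in drying leaves.

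In these 6 libraries, assigned reads numbered at most 20445679, in pro library 3, and at least 16557177, in M82 library 1, over 23028 genes. Values are normalized counts, that is reads divided by a size factor per library, and folds compare these. Pro library 3 stood apart from the other 5: it lay at 111 on the first principal component, which held 62.8% of the variance, with pro library 1 at 24.6, M82 library 3 at 6.03, and pro library 2 and M82 libraries 1 and 2 between -47.7 and -46.5. The Pearson r of pro library 3 with the other libraries, across genes on log2 values, was 0.886 to 0.947, while the other 5 libraries gave 0.954 to 0.984 among themselves. It was more than 4-fold above all 5 others at 107 of 20486 tested genes and more than 4-fold below them at 183, against at most 2 and 17 genes for any other library. The typical spread between replicates (median SD of log2 values) was 0.36 in pro and 0.21 in M82, over 3 libraries each. In pro without library 3 it was 0.23, but an SD of 2 libraries is not comparable with an SD of 3. Pro libraries 1 and 2 also lay apart on the first component. The Pearson r between them was 0.955, against 0.963 to 0.984 among the M82 libraries. Between pro libraries 1 and 2 and the M82 libraries it was 0.954 to 0.979, highest for library 2 of each group. Fold changes are therefore given with and without pro library 3.

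Few differences between pro and M82 passed in the main test, and those few were mostly near-complete gains or losses of a transcript. With 3 libraries a side and pro library 3 apart from the rest, smaller changes can fail to pass. The number of calls is therefore no measure of how many genes differ, nor is their size a measure of how far genes differ. In limma's test on log2 normalized counts, with Benjamini-Hochberg adjustment over all 20486 genes tested, 23 genes passed an adjusted p of 0.05 (0.112% of genes tested). Of these, 15 were lower in pro (0.0732%) and 8 were higher (0.0391%). Chromosome 11, which carries PROCERA, held 9 of the 23 (0.639% of its 1408 tested loci), and the other 14 (0.0734% of 19078) were spread over chromosomes 1, 2, 3, 5, 6, 7, 9 and 12 and the unplaced sequences numbered 0. Without pro library 3, 17 genes passed (0.083%), of which 16 were among the 23, with 7 higher (0.0342%) and 10 lower (0.0488%) in pro, and with 7 on chromosome 11 (0.497%) and 10 elsewhere (0.0524%). The pro and M82 values of all 23 genes did not overlap, which also held for 8.91% of all genes tested (4.47% higher and 4.44% lower in pro), and without pro library 3 for 16.2% (8.5% and 7.72%). EdgeR's quasi-likelihood test on whole reads called 14 genes (0.0683%), all among the 23, and DESeq2 called 112 (0.547%), including all 23. Without pro library 3 these were 15 (0.0732%) and 108 (0.527%). Adding a block for replicate number, limma called 14 (0.0683%), of which 13 were among the 23, and with all 9 libraries in the fit it called 43 (0.21%; 44 and 0.215% without pro library 3). With a pseudocount of 0.1 in place of 1 it called 16 (0.0781%), all among the 23, and with 5 it called 22 (0.107%), of which 19 were. In all, 5 of the 23 passed in every alternative tried. Leaving out pro library 1 or 2 left 9 (0.0439%) or 28 calls (0.137%), and leaving out M82 library 1, 2 or 3 left 11 (0.0537%), 9 (0.0439%) or 8 (0.0391%). The file and the reference used here pair no name or function with any of these loci, so none is given.

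PROCERA itself (Solyc11g011260) was read at 3892, 4507 and 2851 normalized counts in pro libraries 1, 2 and 3, against 3754, 3934 and 3824 in M82. The pro values lay on both sides of the M82 values, pro library 3 being the lowest of the 6. The log2 fold change was -0.06 ± 0.20 (SE; adjusted p = 0.946) with all 3 pro libraries and 0.13 ± 0.13 (adjusted p = 0.9999) without library 3. The amount of PROCERA transcript cannot test the genotype labels, since it says nothing of protein function.

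All 9 chromosome 11 loci that passed have identifiers after that of PROCERA. None of the 389 tested loci before PROCERA passed, 9 of the 354 tested from PROCERA to the last of the 9, Solyc11g039670, did, and none of the 665 after it passed; the end of that stretch was set by the calls themselves. The other loci tested within the stretch had a median log2 fold change of -0.02, and 20 of them changed by more than 2-fold. So did 16 of the 389 before PROCERA, 30 of the 665 after the stretch, and 961 of all 20486 genes tested. Nothing is drawn from the 20 for the stretch. Closest to PROCERA was Solyc11g011340, the fourth tested locus after it. It read 348, 326 and 382 in pro and 70.8, 72.6 and 84.9 in M82, so every pro library was above every M82 library. Its mean was 352 ± 28.0 in pro and 76.1 ± 7.65 in M82 (SD, n = 3 each), a log2 fold change of 2.20 ± 0.18 (SE; adjusted p = 0.0116). Without pro library 3 it was 2.14 ± 0.19 (adjusted p = 0.0374).

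A run of 5 neighbouring loci, Solyc11g027986 to Solyc11g028100, was read in every M82 library and nearly silent in pro. They are all the loci the table lists in that identifier range, and each of them passed. Both ends of the range were set by the calls themselves. Solyc11g028100 had 17.0, 3.95 and 8.96 in pro, against 3594, 3945 and 3411 in M82. That is 31 reads in pro against 10863 in M82, 368-fold lower in pro with a 95% exact binomial interval of 259 to 542 that covers counting error only (log2 fold change -8.57 ± 0.44, adjusted p = 0.00151). Without library 3 it was 350-fold lower (interval 229 to 565; -8.59 ± 0.51, adjusted p = 0.00885). Neighbouring Solyc11g028010 had 2.0, 0 and 2.69 in pro and 1277, 1238 and 1357 in M82. The pro libraries held 5 reads in all and the M82 libraries 3851, so the locus was 809-fold lower in pro (346 to 2493; adjusted p = 0.00176). Without library 3 pro kept 2 reads, which gave a ratio of 1301 (360 to 10748; adjusted p = 0.00433).

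In the same run, Solyc11g028080 had 1.0, 0 and 0.90 in pro, against 133, 117 and 156 in M82. With 2 reads in pro and 404 in M82 the ratio was 212 (58.4 to 1758; adjusted p = 0.00301), and with 1 read in pro libraries 1 and 2 it was 273 (48.7 to 10809; adjusted p = 0.0105). The last pair had no read in any pro library. Solyc11g027986 had 0 in all 3 pro libraries and 266, 210 and 203 in M82, at least 234-fold lower in pro against a floor of 3 reads over the group (at least 150-fold without library 3; adjusted p = 7.48e-04 with it and 0.0023 without). Solyc11g028000 had 0 in pro and 46.8, 26.5 and 14.8 in M82, at least 29.4-fold lower (adjusted p = 0.0492). Leaving out library 3 lowered that floor to at least 18.9-fold and ended the call (adjusted p = 0.147). No source used here states the strand setting or gene overlaps, so neighbouring loci could share reads.

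The other 3 chromosome 11 loci lay on either side of this run. Solyc11g020180 had 1.0, 0 and 0 in pro, against 250, 290 and 304 in M82. The pro libraries held 1 read and the M82 libraries 844, a ratio of 887 (159 to 35058; adjusted p = 0.00148), and 570 (102 to 22553; adjusted p = 0.00433) without library 3. Solyc11g030380 went the other way and was all but absent from M82, with 570, 519 and 939 in pro against 2.28, 0.98 and 0 in M82. Pro library 3 was the highest of the 6, and the ratio of 680 (232 to 3300; adjusted p = 0.00249) was 540 without it (184 to 2623; adjusted p = 0.0134). Solyc11g039670 had 17.0, 17.8 and 13.4 in pro and no read in M82, at least 15.9-fold higher in pro (adjusted p = 0.0391). Without library 3 it was at least 17.3-fold higher but did not pass (adjusted p = 0.178). The values of all 9 loci are shown in the plot of chromosome 11 loci by library.

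**Figure D1:**
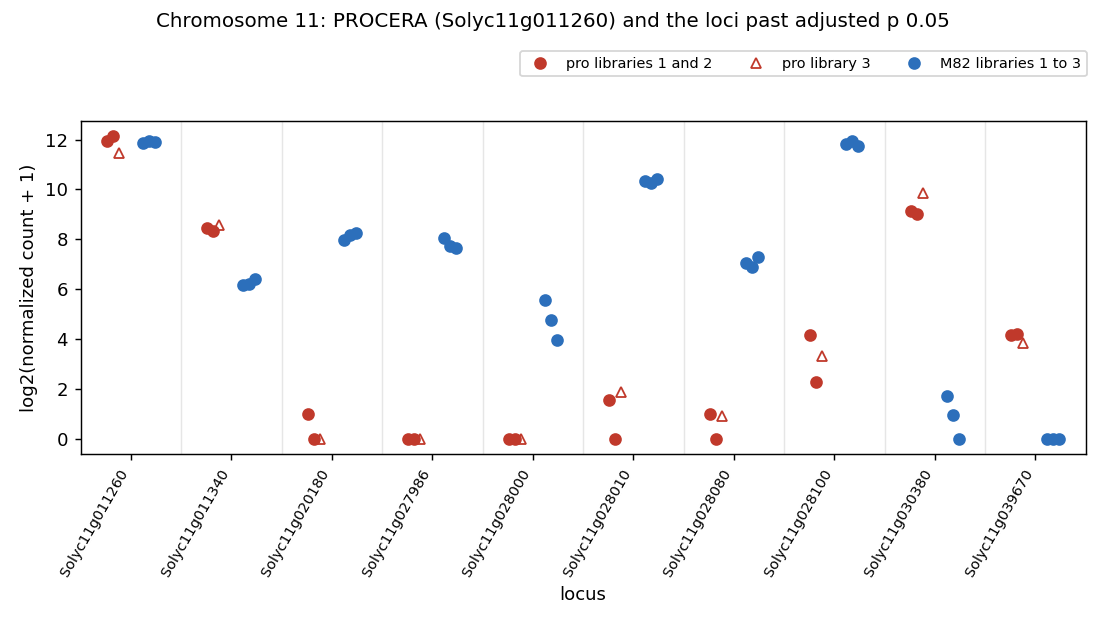
Normalized counts of PROCERA and the 9 chromosome 11 loci that passed, as log2(value + 1), 1 point per library, with pro on the left of each locus (library 3 as an open triangle) and M82 on the right. PROCERA overlaps between the groups and the 9 loci do not; at 6 of them the pro points lie far below the M82 points.

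**Figure D2:**
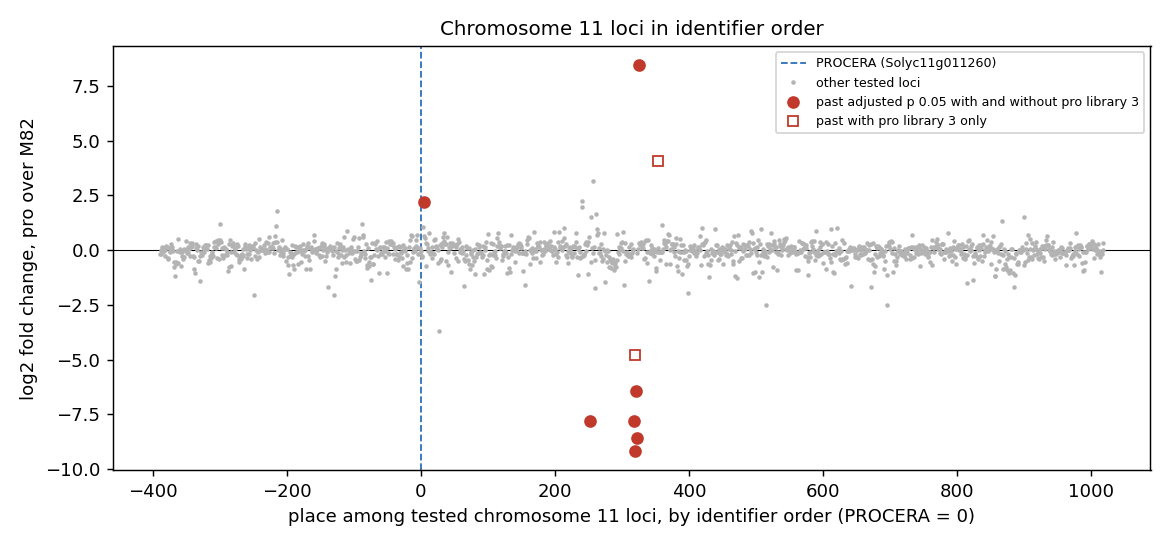
Log2 fold change (pro over M82) of the 1408 tested chromosome 11 loci in the order of their identifiers, counted from PROCERA. Red symbols mark the 9 loci past an adjusted p of 0.05, open squares those that did not pass without pro library 3; all 9 lie to the right of PROCERA, and 5 of them are next to each other.

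Of the chromosome 11 calls, 5 (Solyc11g020180, Solyc11g027986, Solyc11g028010, Solyc11g028100 and Solyc11g030380) passed without any single library. Solyc11g011340 did not pass without pro library 1 or any single M82 library (adjusted p = 0.0835 to 0.154), and Solyc11g028080 did not without any single M82 library (0.0511 to 0.0565). Solyc11g028000 (0.0735 to 0.416) and Solyc11g039670 (0.114 to 0.328) did not pass without any single one of the 6 libraries. With the replicate number as a block in limma, these last 2 loci did not pass either (adjusted p = 0.130 for Solyc11g028000 and 0.159 for Solyc11g039670) and the other 7 did. EdgeR also passed the other 7 and not these 2, with and without pro library 3. Its adjusted p was 0.373 (0.511 without library 3) for Solyc11g028000 and 0.192 (0.418) for Solyc11g039670. A pseudocount of 0.1 ended the calls of Solyc11g028010 (0.0645), Solyc11g028080 (0.0705) and Solyc11g030380 (0.0588), and a pseudocount of 5 those of Solyc11g028000 (0.160) and Solyc11g039670 (0.0825).

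Off chromosome 11, 5 loci rose in pro. Solyc00g107055, in sequence not placed on a chromosome, had 245, 261 and 322 in pro, against 0, 0 and 0.92 in M82. The pro libraries held 868 reads and the M82 libraries 1, a ratio of 826 (95% exact interval 148 to 32675; adjusted p = 0.00148), and without pro library 3 it was 753 (135 to 29809; adjusted p = 0.0105). Solyc01g081250 had 424, 173 and 1316 in pro and 1.14, 0 and 0.92 in M82. Its pro values were far apart, library 3 being the highest. With 2067 reads in pro and 2 in M82, the ratio of 984 (272 to 8130; adjusted p = 0.0187) was 443 (122 to 3668; adjusted p = 0.0241) without it. Both loci were thus nearly silent in M82.

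The other 3 gains were at loci that M82 guard cells also expressed. Solyc12g087830 had 1610, 1184 and 1382 in pro, against 162, 63.8 and 108 in M82, a log2 fold change of 3.72 ± 0.34 (adjusted p = 0.0187). Without library 3 the change was the same size, 3.72 ± 0.39, but did not pass (adjusted p = 0.0696). Solyc09g008840 had 513, 600 and 785 in pro and 149, 130 and 124 in M82, with library 3 again the highest. The log2 fold change was 2.21 ± 0.20 (adjusted p = 0.0187), and 2.05 ± 0.17 (adjusted p = 0.0323) without it. Solyc03g114965 showed the smallest change that passed and some of the tightest values: 1078, 1096 and 1124 in pro, against 430, 390 and 441 in M82. Its mean was 1099 ± 22.9 in pro and 420 ± 27.0 in M82 (SD, n = 3 each), a difference of 1.39 ± 0.12 on the log2 scale (adjusted p = 0.0185), and 1.37 ± 0.13 (adjusted p = 0.0396) without library 3.

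The remaining 9 loci off chromosome 11 fell in pro, and 5 of them had no read in any pro library. Solyc03g058370 had 0 in pro and 236, 209 and 198 in M82, at least 222-fold lower in pro (adjusted p = 7.48e-04), and at least 143-fold (adjusted p = 0.0023) without library 3. Solyc05g017785 had 0 in pro and 28.6, 31.4 and 27.7 in M82, at least 30.5-fold lower (adjusted p = 0.0116; at least 19.6-fold and 0.0372 without library 3). Its neighbour Solyc05g017790 had 0 in pro and 14.9, 16.7 and 14.8 in M82, at least 16.1-fold lower (adjusted p = 0.0391), and did not pass without library 3 (at least 10.4-fold, adjusted p = 0.115). As neighbours in identifier order, the pair may share reads.

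Another pair of near neighbours lay on chromosome 7. Solyc07g052720 had 0 in pro and 32.0, 45.1 and 24.9 in M82, at least 35.4-fold lower in pro (adjusted p = 0.0146; at least 22.7-fold and 0.0396 without library 3). Solyc07g052700 had 0, 2.97 and 0 in pro and 372, 363 and 290 in M82. The 3 reads of pro, against 1010 of M82, all came from pro library 2, so the ratio was 354 (121 to 1718; adjusted p = 0.009) with library 3 and 227 (77.6 to 1105; adjusted p = 0.0241) without it. The fifth silent locus, Solyc02g030655, had 0 in pro and 14.9, 15.7 and 16.6 in M82, at least 16.5-fold lower (adjusted p = 0.0391), and did not pass without library 3 (at least 10.6-fold, adjusted p = 0.112). On the same chromosome, Solyc02g033030 had 1.0, 0 and 0 in pro, against 43.4, 33.4 and 36.9 in M82, a ratio of 118 (20.7 to 4688; adjusted p = 0.0191). It too did not pass without library 3 (75.7, interval 13.3 to 3016; adjusted p = 0.0605).

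The last 2 losses, on chromosome 6, left reads in every pro library. Solyc06g075090 had 7.0, 16.8 and 8.96 in pro and 1778, 878 and 855 in M82, where library 1 was the highest. The log2 fold change was -6.62 ± 0.41 (adjusted p = 0.00301), and -6.53 ± 0.46 (adjusted p = 0.0148) without pro library 3. Solyc06g005310 had 22.0, 19.8 and 12.6 in pro, against 154, 132 and 253 in M82. Its log2 fold change was -3.22 ± 0.35 (adjusted p = 0.0443), and without library 3, the lowest, it was -2.99 ± 0.33 and did not pass (adjusted p = 0.0853).

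**Figure D3:**
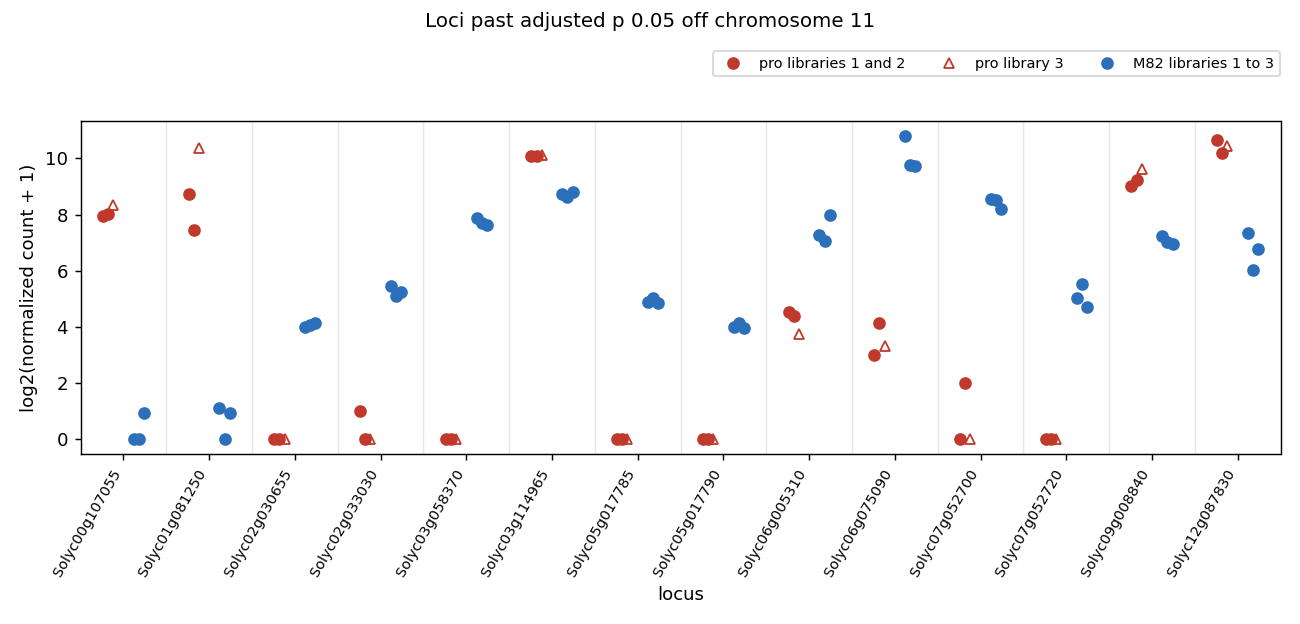
Normalized counts of the 14 loci off chromosome 11 that passed, as log2(value + 1), 1 point per library, with pro on the left of each locus (library 3 as an open triangle) and M82 on the right. The groups do not overlap at any of the 14; pro library 3 stands well above the other pro libraries at Solyc01g081250.

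Of these 14 calls, 3 (Solyc00g107055, Solyc03g058370 and Solyc06g075090) passed without any single library. Without pro library 1 or any single M82 library, the adjusted p was 0.129 to 0.208 for Solyc01g081250, 0.129 to 0.215 for Solyc03g114965, 0.0833 to 0.206 for Solyc05g017785, 0.0668 to 0.113 for Solyc07g052700, 0.102 to 0.206 for Solyc07g052720 and 0.0914 to 0.206 for Solyc09g008840. Solyc02g033030 did not pass without any single library other than pro library 2 (0.0605 to 0.215). Solyc02g030655 (0.0677 to 0.415), Solyc05g017790 (0.0688 to 0.416) and Solyc06g005310 (0.0595 to 0.300) did not pass without any single one of the 6. Solyc12g087830 did not pass without pro library 1 (0.208), pro library 3 (0.0696) or M82 library 3 (0.129). With the replicate number as a block, 6 of the 14 passed in limma. The others had an adjusted p of 0.159 (Solyc02g030655), 0.0697 (Solyc02g033030, Solyc05g017785, Solyc07g052720 and Solyc09g008840), 0.0633 (Solyc03g114965), 0.164 (Solyc05g017790) and 0.130 (Solyc06g005310). Solyc03g058370 did not pass with all 9 libraries in the fit (adjusted p = 0.0879; 0.157 without pro library 3). Nor did Solyc02g030655 with all 9 less pro library 3 (0.0961). A pseudocount of 0.1 ended the calls of Solyc01g081250 (0.0703), Solyc02g033030 (0.154), Solyc06g005310 (0.0551) and Solyc07g052700 (0.118), and a pseudocount of 5 those of Solyc02g030655 (0.0775) and Solyc05g017790 (0.0812).

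A single gene passed without pro library 3 and not with it, Solyc08g078840. It had 407, 406 and 79.8 in pro, against 102, 120 and 117 in M82. Pro libraries 1 and 2 lay well above M82, and library 3 lay below it. The log2 fold change was 1.84 ± 0.17 (adjusted p = 0.0396) without library 3 and 1.06 ± 0.62 (adjusted p = 0.889) with it.

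Over all 20486 genes tested, leaving out pro library 3 changed the sign of the log2 fold change at 5455 genes (26.6%), but at 0 of the 23. With it 961 genes differed by more than 2-fold between the groups, and without it 487, of which 360 were in common with the same sign. The median size of the log2 fold change was 0.21 with library 3 and 0.14 without it. Of the 23 genes, 1 shifted by more than 0.5 on the log2 scale when library 3 was left out, Solyc01g081250, by 0.76. In the 7 of the 23 that did not pass without library 3, the fitted change stayed on the same side, with fewer libraries behind it.

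**Figure D4:**
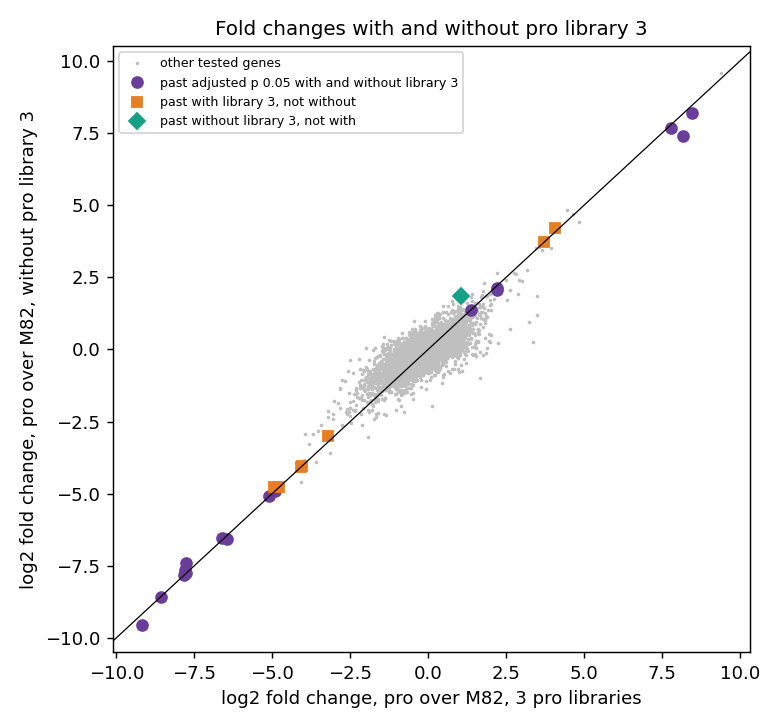
Log2 fold change (pro over M82) of all 20486 tested genes with all 3 pro libraries (x axis) and without pro library 3 (y axis), with the line of equality. The 16 genes past an adjusted p of 0.05 in both fits and the 7 past it only with library 3 lie on or near the line. Those with smaller changes, such as Solyc03g114965 (1.39 and 1.37), lie in the range of other genes. The gene past it only without library 3 (green diamond) lies above the line.

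The proD17 line, with the opposite change in DELLA activity, gives the level of these loci in another genotype. Its comparison with M82 shares the M82 libraries, so values and counts are given without a test. Off chromosome 11, proD17 lay outside the M82 range on the same side as pro at 7 loci that passed. It lay on the other side at 3 and overlapped M82 at 4. On chromosome 11 these counts were 1, 1 and 7. The same counts were not made over all genes, so nothing is drawn from them. The loci below are examples. On chromosome 11, Solyc11g028100 had 3697, 3291 and 3653 in proD17, within or near the M82 range, and Solyc11g039670 had no read there. Solyc11g011340 stood at 50.8, 46.7 and 55.5 in proD17, below M82, and so on the opposite side from pro. Solyc11g028000 had 13.4, 11.7 and 14.5 in proD17, just below M82. Off chromosome 11, Solyc06g005310 had 577, 326 and 430 in proD17, above M82, where pro was below it. Solyc12g087830 had 1545, 1263 and 1342 in proD17, as high as in pro. Solyc03g058370 (0, 90.7 and 29.0) and Solyc02g030655 (3.84, 0 and 1.21) were likewise below M82 in both lines, as was Solyc07g052700 with 105, 119 and 101.

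The hormone pathways were followed through loci fixed by identifier from general knowledge and not checked against an annotation, so they are given by list. None passed over all genes in the limma fits of these 6 libraries, with or without pro library 3, or in edgeR. Synthesis of gibberellin was followed at 5 loci for gibberellin 20-oxidases and 3-oxidases, the enzymes of its last steps, of which 3 had enough reads to be tested. All 3 had negative changes, with a median log2 fold change of -1.62 (-1.32 without pro library 3), beside -0.00 (0.01) over all genes tested. The locus with the largest change had 200, 260 and 78.9 in pro, against 818, 904 and 534 in M82. Its groups did not overlap and library 3 was the lowest of all 6. The log2 fold change was -2.19 ± 0.46 (limma, adjusted p = 0.528, unadjusted p = 0.00217) with library 3 and -1.68 ± 0.26 (adjusted p = 0.270) without it, and DESeq2 called it in both cases (adjusted p = 0.0024 and 1.33e-05). Limma called it in 1 setting, with all 9 libraries less pro library 3 (adjusted p = 0.0251). With the replicate number as a block, limma gave it an adjusted p of 0.0697. Another locus had 26.0, 45.5 and 17.9 in pro and 139, 81.5 and 59.1 in M82, without overlap (log2 fold change -1.62 ± 0.46, adjusted p = 0.889; -1.32 ± 0.44, adjusted p = 0.9999, without library 3). The third overlapped, with 19.99, 73.1 and 4.48 in pro against 49.1, 87.3 and 42.5 in M82 (-1.50 ± 0.90, adjusted p = 0.889; -0.55 ± 0.60, adjusted p = 0.9999, without library 3).

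Gibberellin 2-oxidases inactivate the hormone. Of 6 such loci 4 were tested, with a median of 0.62, 3 positive and 1 negative, and a median of 1.03 with all 4 positive without pro library 3. The locus with the largest change had 159, 55.3 and 144 in pro, against 28.6, 21.6 and 54.4 in M82. Every pro value was above every M82 value, by a narrow margin for pro library 2, and the log2 fold change was 1.71 ± 0.52 (adjusted p = 0.889; 1.51 ± 0.58, adjusted p = 0.9999, without library 3). At the 4 loci for perception, the GID1 receptors and the F-box protein, the median was -0.45 (-0.44 without library 3), with 3 negative changes with library 3 and 4 without it. A locus of this list had 195, 137 and 263 in pro, against 283, 273 and 319 in M82, without overlap (-0.60 ± 0.26, adjusted p = 0.889; -0.83 ± 0.21, adjusted p = 0.858, without library 3). Another had 144, 64.2 and 192 in pro against 208, 184 and 194 in M82, where library 3 reached the M82 range (-0.68 ± 0.40, adjusted p = 0.889; -1.01 ± 0.35, adjusted p = 0.9999, without library 3). The remaining loci of this list overlapped between the groups and were near 0 without library 3. A locus among them had 836, 540 and 1385 in pro and 684, 612 and 781 in M82 (0.31 ± 0.33, and -0.04 ± 0.22 without library 3). The last had 1379, 1407 and 818 in pro and 1671, 1373 and 1304 in M82 (-0.30 ± 0.24, and -0.05 ± 0.15 without library 3).

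The NRT1/PTR locus Solyc05g006990, of the transporter family of the abscisic acid importer AIT1, had 242, 370 and 173 in pro, against 625, 635 and 515 in M82. All 3 pro libraries lay below all M82 libraries, library 3 lowest. The log2 fold change was -1.24 ± 0.28 (adjusted p = 0.725, unadjusted p = 0.00361) and -0.98 ± 0.22 (adjusted p = 0.711, unadjusted p = 0.00409) without library 3. DESeq2 did not call it in either case (adjusted p = 0.0582 and 0.0657).

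For abscisic acid, which closes the pore in drying leaves, the list medians were larger with pro library 3 than without it. The 8 signalling loci, for PP2C phosphatases that restrain the response, a SnRK2 kinase and a transcription factor that carry it, had a median log2 fold change of 0.87 with that library and 0.13 without it. Pro library 3 held the highest of the 6 values at all 8. At the locus with the largest change the values were 707, 101 and 3512 in pro and 208, 249 and 351 in M82, so the pro libraries lay both above and below M82. Its log2 fold change of 1.26 with library 3 was 0.02 without it (adjusted p = 0.889 and 0.9999). The 6 tested loci for synthesis and turnover had a median of 0.42, and 0.19 without library 3, which was highest at 4 of them. The locus of this list with the largest change had 2001, 1346 and 4587 in pro, against 1192, 831 and 1166 in M82. It did not overlap between the groups in either case (log2 fold change 1.14 ± 0.44, adjusted p = 0.889; 0.64 ± 0.24, adjusted p = 0.9999, without library 3). Of the 29 hormone and dehydrin loci tested, including PROCERA and the NRT1/PTR locus, 5 had an unadjusted p under 0.05 in limma with library 3 and 8 without it. Among all genes tested, 3.73% had such a p with library 3 and 3.75% without it. The lists were chosen with earlier results of these data known, so nothing is drawn from a difference between these shares.

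Dehydrins are hydrophilic proteins made in drying tissue. A dehydrin locus had 331, 7.91 and 35710 in pro, against 12.6, 38.3 and 174 in M82, so pro library 3 lay far above every other library. Its log2 fold change was 3.38 with library 3 and 0.26 without it (adjusted p = 0.889 and 0.9999). The second had 2907, 830 and 3241 in pro and 1518, 1583 and 2214 in M82, with a log2 fold change of 0.19 with library 3 and -0.17 without it (adjusted p = 0.937 and 0.9999).

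Markers of cell types moved with pro library 3 as well. Light-harvesting chlorophyll proteins and Rubisco small subunits, most abundant in mesophyll, were followed at 14 loci, all of which were lowest in pro library 3. Their summed level was 322291, 533620 and 160610 in pro libraries 1, 2 and 3, against 339363 to 456579 in M82, and none of them was at 0. Their median log2 fold change was -0.49 with library 3 (13 negative, 1 positive) and 0.19 without it (3 negative, 11 positive). The 3 loci for transcription factors of the stomatal lineage, which builds guard cells, were read in all 6 libraries, with a sum of 1196 to 1468 in pro and 1237 to 1436 in M82. A single locus made up most of that sum, with 1363, 913 and 1266 in pro and 1149, 1074 and 1104 in M82 (0.07 with library 3, 0.01 without it). The other 2 were lowest in pro library 3. The lineage locus with the most negative change had 79.9, 248 and 7.17 in pro, against 242, 195 and 95.04 in M82 (-1.60 ± 1.17 with library 3, -0.23 ± 0.58 without it). The last had 24.98, 34.6 and 4.48 in pro, against 44.55, 43.2 and 38.8 in M82 (-1.33 ± 0.69 with library 3, -0.50 ± 0.29 without it). Fewer cells of a type and less RNA per cell cannot be told apart in such bulk libraries, and the part of cell makeup in the values of pro library 3 was not tested. No locus of either marker list passed in limma, edgeR or DESeq2, and none had an unadjusted p under 0.05 in limma.

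**Figure D5:**
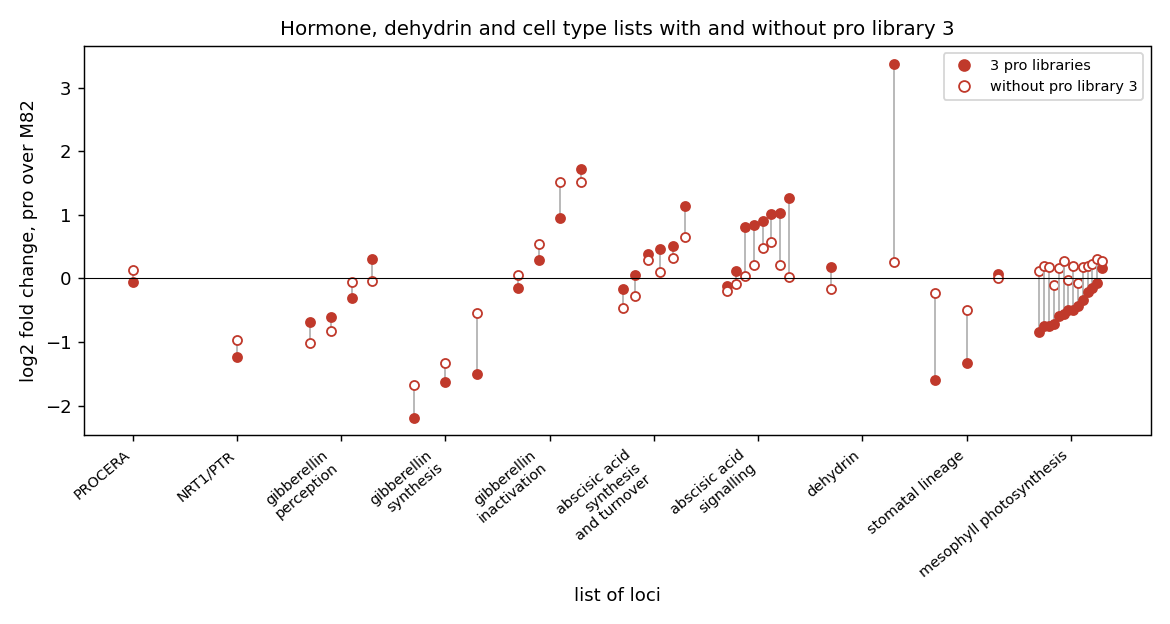
Log2 fold change (pro over M82) of each tested locus of the hormone, dehydrin and cell type lists, with all 3 pro libraries (filled) and without pro library 3 (open), joined by a line per locus. The gibberellin synthesis loci are below 0 either way, while most abscisic acid signalling, dehydrin and mesophyll loci shift without library 3, so that the list medians lie at 0.13, 0.05 and 0.19 without it, against 0.87, 1.78 and -0.49 with it.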

How the data were processed

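Poly A RNA of guard cells from tomato leaves was sequenced. The authors' deposited table gives normalized counts, a signal per gene and library headed so per the file headers. Reads had gone through cutadapt, STAR 2.4.2a, HTSeq and DESeq2, per the submitters' processing notes, with no build, annotation or strand setting stated. Dividing by the smallest step of a library turned 100% of its values into whole reads, within 0.006.

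Limma 3.58.1 (R 4.3.3, mean-variance trend) tested pro against M82 on log2(normalized count + 1) in those 6 libraries, so fold changes of low genes are understated. EdgeR's expression filter kept 20486 of 23028 genes, with Benjamini-Hochberg adjustment over these and a threshold of 0.05. EdgeR 4.0.16 and DESeq2 1.42.0 on the recovered reads, an all-library fit, other pseudocounts, no filter, and leaving out each library were alternatives; the deposited fold changes were not used. The tests were first tried on simulated counts. Ratios and intervals use reads over size factors and cover counting error only; floors are 3 reads over a group. No replicate pair agreed within sampling noise (chi-square over its degrees of freedom at least 17.0). Pairs across the groups gave at least 13.9, for library 2 of each.

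Replicate numbers pair the samples only in part by the data. Same-numbered libraries of pro and M82 deviated together from their group means (correlation across genes 0.148, 0.525 and 0.543). Pro library 2 with M82 library 1 gave 0.271, above the same-numbered pair 1. With 3 libraries a group the deviations depend on one another, so these correlations cannot establish a pairing. The main test leaves the number out, and the block fit takes it in. The labels do not say what a number shares.

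Genes named were all that passed with all 6 libraries, those that passed only without pro library 3, PROCERA and Solyc05g006990. The 53 list loci, 46 of them tested, came from general knowledge. Members and lists were chosen with earlier results of these data known. The reference gene table (assembly SLM_r2.1) matched 0 identifiers.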

Additional observations from a re-analysis of the deposited data

How the results depend on the processing

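Against 23 genes, with 9 on chromosome 11 and 14 off it, the count moved by over 1.5 times with all 9 libraries in one limma fit (43, of which 31 off chromosome 11; 44 and 31 without pro library 3), with edgeR under TMM or DESeq2 size factors (14 each, of which 7 off it; under TMM 15 and 8 without pro library 3), and with DESeq2 (112, with 19 on and 93 off chromosome 11; 108, 21 and 87 without pro library 3). With the replicate block it was 14, of which 7 off chromosome 11 and 13 among the 23. Without any single library in limma the count was 8 to 28, with 5 to 7 on chromosome 11 and 3 to 21 off it; the lowest counts came without pro library 1 (9) and without M82 libraries 1, 2 and 3 (11, 9 and 8), each with fewer samples in the fit. The fits that combine another tool or all 9 libraries with leaving out pro library 3 were chosen after seeing the data. For the genes named, over all alternatives, the sign and the side of the threshold held in 314 values, and the call was lost in 120 and gained in 4. The sign turned in 4, all at PROCERA in fits less pro library 3. Limma then gave 0.13, whether that library was taken from the 6 or from all 9. EdgeR and DESeq2 gave 0.12, against -0.06 in the main fit. With each single library left out in turn, limma gave -0.20 to 0.13. The cause of the differences between tools was not tested. Depth sets the floors: a locus with no read in a group is shown to differ only down to 3 reads over that group.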

Other observations

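The largest log2 fold change over all genes in limma, a mean difference on log2(normalized count + 1), did not pass. By summed reads it was not the largest change. Its locus held 7890 reads in pro and 23 in M82, a smaller ratio than at Solyc11g028010 with 5 and 3851. Solyc06g035940 had 2553, 3141 and 1933 normalized counts in pro and 126, 105 and 853 in proD17, against 25.1, 0.98 and 0 in M82. Its log2 fold change was 9.39 ± 1.13 (limma, adjusted p = 0.0715; 0.200 without pro library 3; 3.15e-04 in DESeq2). On chromosome 11 the largest change that did not pass was at Solyc11g011570, 27 tested loci after PROCERA, with 2.0, 6.92 and 0 in pro and 43.4, 30.4 and 36.0 in M82 (-3.70 ± 0.75, adjusted p = 0.492; 0.380 without pro library 3). These loci and the next 4 were chosen after their values were seen.

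Besides the loci already described, Solyc08g013756 had no read in pro and 26.3, 15.7 and 10.2 in M82 (at least 17.5-fold lower in pro, adjusted p = 0.0826; 0.222 without pro library 3). Solyc00g006867 had 39.97, 18.8 and 11.7 in pro and none in M82 (at least 22.8-fold higher, adjusted p = 0.0826; 0.135 without pro library 3). With the replicate block, Solyc02g065190 also passed: it had 6.0, 13.8 and 6.27 in pro and 99.4, 232 and 130 in M82 (-4.00 ± 0.45, adjusted p = 0.0186 with the block, 0.0528 without it and 0.155 without pro library 3). Without pro library 2, 10 genes passed that did not pass with all 6 libraries. At Solyc12g039080, the lowest in adjusted p of these, the values were 354, 72.2 and 381 in pro and 3.43, 6.87 and 11.1 in M82 (4.84 ± 0.72, adjusted p = 0.0228 without pro library 2, 0.161 with it and 0.377 without pro library 3).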
